A study of Mus musculus with 6 samples.

Results

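The genes described here are the core of the NRF2 and glutathione system in mouse macrophages: Nfe2l2, Keap1, Slc7a11, Gclc, Gclm, Nqo1, Txnrd1, Srxn1, Gsr and Glrx. They were taken by gene name from the deposited table and are 10 of its 54532 genes. The cells were bone marrow-derived macrophages, which are grown in culture from marrow progenitors, and all had been brought to the inflammatory M1 state with LPS and IFN-γ. Of the 6 RNA-seq libraries 3 were labelled NSUN2-KO and 3 NC. The NSUN2 enzyme methylates cytosines of tRNAs and of further RNA classes. Neither the meaning of NC is explained in the labels, nor how the knockout was made or which animal gave which library, and age, sex and strain are not stated. The series text calls the replicates biological, and p-values measure only the spread between these libraries. No unstimulated cells were analysed here, so the values show M1 cells with and without the knockout and not the response to LPS and IFN-γ.

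NRF2, encoded by Nfe2l2, is a transcription factor that KEAP1 holds for degradation in resting cells. Oxidants and electrophiles modify KEAP1, NRF2 then accumulates, pairs with a small MAF protein and binds antioxidant response elements near genes for glutathione synthesis, thioredoxin recycling and detoxification. In macrophages activated with LPS the itaconate made in mitochondria is one such electrophile, and the NRF2 response is known for limiting inflammatory cytokine expression.

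Slc7a11 was the member that differed most. It encodes xCT, the transporter that brings in cystine for glutathione synthesis, and it was 1.54-fold higher in NSUN2-KO. Txnrd1, the cytosolic thioredoxin reductase, was 1.14-fold higher, and Glrx, the glutaredoxin that removes glutathione from proteins, was lower at 90.6% of the NC mean. The other 7 members, Nfe2l2 and Keap1 among them, did not pass the test. A gene was called where limma, fitted over the 9443 genes that averaged 1 FPKM or more (fragments per kilobase of gene, scaled to library size), gave a Benjamini-Hochberg adjusted p below 0.05, and all 10 members entered that fit. Thus 2 of 10 members were called higher, where 4.19% of all tested genes were, and 1 of 10 was called lower, where 4.30% of all tested genes were. Log2 fold changes are NSUN2-KO minus NC on the log2(FPKM + 1) scale; for low genes this scale understates a change.

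RefSeq promoter windows of the 3 called members, and of Srxn1 and Gclm, are shown: Srxn1 and Gclm were not called, but their groups did not overlap and their windows hold a match. For Txnrd1 only the window with a match is printed, and its other windows hold none. Not printed are the windows of Nfe2l2, which holds a match though its groups overlapped, and of Keap1 and Nqo1, which hold none. The printed windows were thus picked partly by their matches. Each window holds the 250 bases before a transcription start and 50 bases from it, in build GRCm38.p6, printed 5′ to 3′ on the strand of the gene. Capitals mark matches on either strand to TGACNNNGC (the core of the antioxidant response element), TGACTCA (an AP-1 motif) or TGATGCAA (a core of the amino acid response element, bound by ATF4 with a C/EBP partner). The last 2 motifs were added after the windows had been seen.
Slc7a11, chr3:50443564-50443863, minus strand: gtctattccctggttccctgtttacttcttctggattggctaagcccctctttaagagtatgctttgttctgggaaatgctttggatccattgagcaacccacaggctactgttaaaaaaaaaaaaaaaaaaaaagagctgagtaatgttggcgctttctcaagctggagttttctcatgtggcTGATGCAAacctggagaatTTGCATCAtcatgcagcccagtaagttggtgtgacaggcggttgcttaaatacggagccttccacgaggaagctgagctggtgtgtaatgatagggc
Txnrd1, chr10:82858956-82859255, plus strand: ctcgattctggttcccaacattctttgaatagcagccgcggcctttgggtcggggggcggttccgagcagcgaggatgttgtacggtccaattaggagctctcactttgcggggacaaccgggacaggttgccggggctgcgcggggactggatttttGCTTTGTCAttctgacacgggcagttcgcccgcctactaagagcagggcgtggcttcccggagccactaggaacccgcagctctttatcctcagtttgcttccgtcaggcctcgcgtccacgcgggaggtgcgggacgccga
Glrx, chr13:75839635-75839934, plus strand: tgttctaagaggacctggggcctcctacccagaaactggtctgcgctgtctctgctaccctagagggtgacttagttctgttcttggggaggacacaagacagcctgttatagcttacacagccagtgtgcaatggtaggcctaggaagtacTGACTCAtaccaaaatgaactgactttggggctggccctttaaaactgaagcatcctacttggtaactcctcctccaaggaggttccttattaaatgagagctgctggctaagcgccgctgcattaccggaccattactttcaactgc
Srxn1, chr2:152105274-152105573, plus strand: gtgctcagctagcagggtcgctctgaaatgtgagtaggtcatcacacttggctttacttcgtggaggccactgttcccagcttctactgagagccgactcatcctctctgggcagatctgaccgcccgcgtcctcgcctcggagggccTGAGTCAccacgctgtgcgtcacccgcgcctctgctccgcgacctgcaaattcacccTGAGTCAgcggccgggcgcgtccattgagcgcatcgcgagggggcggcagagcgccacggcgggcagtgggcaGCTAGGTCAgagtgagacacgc
Gclm, chr3:122245307-122245606, plus strand: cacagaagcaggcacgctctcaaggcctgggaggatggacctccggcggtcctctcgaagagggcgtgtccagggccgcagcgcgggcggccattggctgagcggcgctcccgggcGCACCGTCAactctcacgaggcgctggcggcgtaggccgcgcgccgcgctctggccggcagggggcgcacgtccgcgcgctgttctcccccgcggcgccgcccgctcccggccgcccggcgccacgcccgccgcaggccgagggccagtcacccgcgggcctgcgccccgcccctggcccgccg

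Windows were found for 8 of the 10 members, not for Gclc and Gsr, with 3 for Txnrd1 and 2 for Glrx that are offset by 1 base, so that 11 windows were searched. Of the 11 windows, 4 held TGACNNNGC, 1 each for Nfe2l2, Gclm, Txnrd1 and Srxn1, where 12.4% of all 32851 windows of this length held it. In Gclm the match reads TGACGGTGC on the opposite strand and begins 134 bases before the start. In Txnrd1 it lies in the second of the 3 windows, 92 bases before the start, and reads TGACAAAGC on the opposite strand. The Nfe2l2 match, TGACTCCGC, begins 240 bases before the start, and the Srxn1 match lies after the start. TGACTCA was present in Srxn1, at 102 and 45 bases before the start, and in Glrx, and 5.20% of all windows held it; none of these matches overlapped a TGACNNNGC match. Slc7a11 held no TGACNNNGC and held TGATGCAA on each strand, beginning 66 and 47 bases before the start, a motif found in 0.895% of all windows. These are matches of letters, and binding was not measured.

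**Figure D1:**
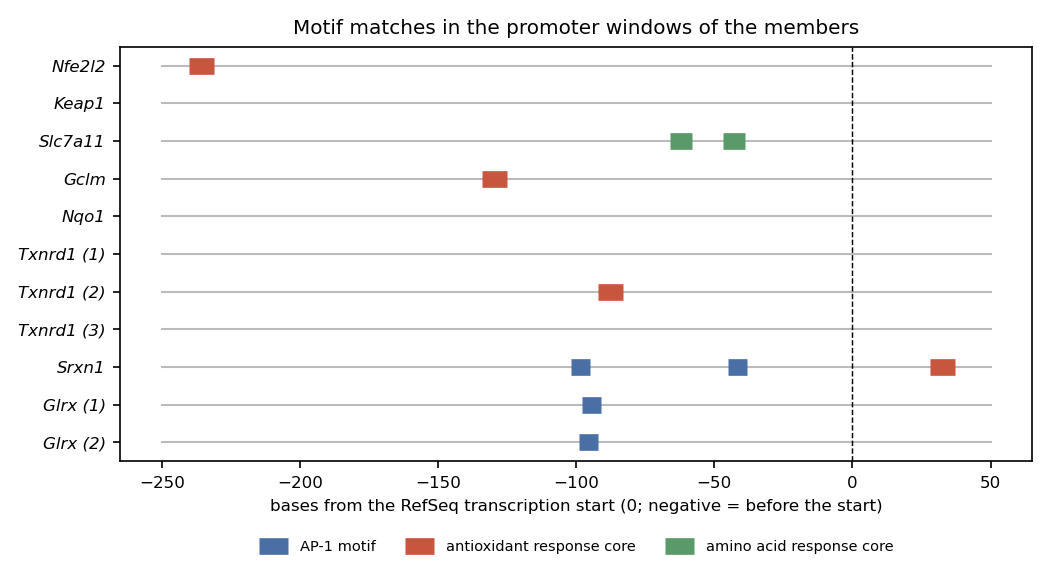
Motif matches in the 11 RefSeq promoter windows of 8 members, plotted as distance in bases from the transcription start (dashed line), with red for the antioxidant response core, blue for the AP-1 motif and green for the amino acid response core. The 4 red matches lie in Nfe2l2, Gclm, the second Txnrd1 window and Srxn1, and both green matches lie in Slc7a11.

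Nsun2 itself was at 55.4% of the NC mean in NSUN2-KO (1.92 ± 0.11 against 1.06 ± 0.26 FPKM, SD, n = 3; exact two-sided permutation p = 0.1, the smallest that 3 against 3 allow). The libraries held 35019033 to 45636131 reads, so that a single read per kb of gene equalled 0.0218 to 0.0285 FPKM. All 10 macrophage markers passed 1 FPKM, and their summed level was 4148 to 4240 FPKM in NC and 3571 to 3606 FPKM in NSUN2-KO, with 5 lower and 1 higher. Lyz2, the most abundant of the 10, weighs most in that sum, with means of 1736 FPKM in NC and 1163 in NSUN2-KO. The marker called higher, Cd14, had means of 205.5 and 251.2 FPKM. Of the 10 fold changes 4 were positive and 6 negative. Over all tested genes 4.30% were called lower and 4.19% higher, and these shares stand beside the marker counts here and below. The sum of 12 neutrophil markers was 100.9 to 108.5 FPKM in NC and 81.7 to 85.9 in NSUN2-KO, with Elane at 0 in all libraries and 3 of 6 tested lower. The sum of 8 dendritic cell markers was 5.24 to 6.33 FPKM in NC and 8.39 to 9.70 in NSUN2-KO, with 1 of 2 tested higher. The sum of 8 fibroblast and stroma markers was 1.53 to 1.73 FPKM in NC and 0.754 to 1.05 in NSUN2-KO. None of those 8, of 12 T and NK cell, 8 B cell, 6 mast cell and basophil or 7 erythroid markers reached a mean of 1 FPKM. Cd2, Cd3e, Cd3g, Cd8b1, Mcpt8 and the globin genes Hba-a1, Hba-a2, Hbb-bs and Hbb-bt were at 0 in every library. Of Y-linked genes, Uty, Kdm5d, Ddx3y and Eif2s3y had 0 reads in NSUN2-KO and 0.561 to 6.57 FPKM on average in NC, while Xist was present in both groups, at 14.5 ± 0.88 FPKM in NC and 30.6 ± 1.20 in NSUN2-KO (SD, n = 3). Y-linked expression followed the genotype in all 6 libraries, so that a difference tied to it and the knockout cannot be told apart. The part of these differences in the results on the members was not tested. In bulk RNA, fewer cells of a type and less RNA per cell cannot be told apart.

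The regulators came first. Nfe2l2 (ENSMUSG00000015839, GRCm38 chromosome 2, positions 75675513 to 75704641, minus strand) measured 28.2, 28.7 and 27.5 FPKM in the NC libraries, given in the order of replicates 1, 2 and 3 here and below, and 30.3, 31.6 and 28.7 FPKM in the knockout libraries. NSUN2-KO replicate 3 lay just below the highest NC library, so the groups overlapped, and the log2 fold change of 0.10 (SE 0.04, limma adjusted p = 0.210) was not called. Keap1 (ENSMUSG00000003308, chromosome 9, positions 21229730 to 21239361, minus strand), the adaptor that targets NRF2 for degradation, measured 17.0, 17.3 and 16.9 FPKM in NC and 17.8, 17.0 and 16.3 FPKM in NSUN2-KO. The knockout values lay on both sides of the NC values. The fitted difference of Keap1 was 0.00 with a 95% interval of -0.10 to 0.09 on the log2 scale (limma adjusted p = 0.959), and its sign was positive in TPM, with limma voom, with the trend over GC content and gene length removed and without NC replicate 2 or NSUN2-KO replicate 3. The ratio of Nfe2l2 to Keap1 FPKM, a description with no test, was 1.65, 1.66 and 1.63 in NC and 1.70, 1.87 and 1.76 in NSUN2-KO. All 3 knockout ratios lay above the NC ratios. GC content was 46.8% for Nfe2l2 and 58.0% for Keap1. With the trend over GC content and gene length removed, the log2 fold change was 0.09 for Nfe2l2 and 0.07 for Keap1. Neither was called in that fit, and the ratio was not recomputed with that trend removed. An antisense gene, Gm16754, overlaps Keap1 (mean 0.986 FPKM), and reads of the pair cannot be told apart unless strand was used in counting, and no source used here gives the strand setting.

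**Figure D2:**
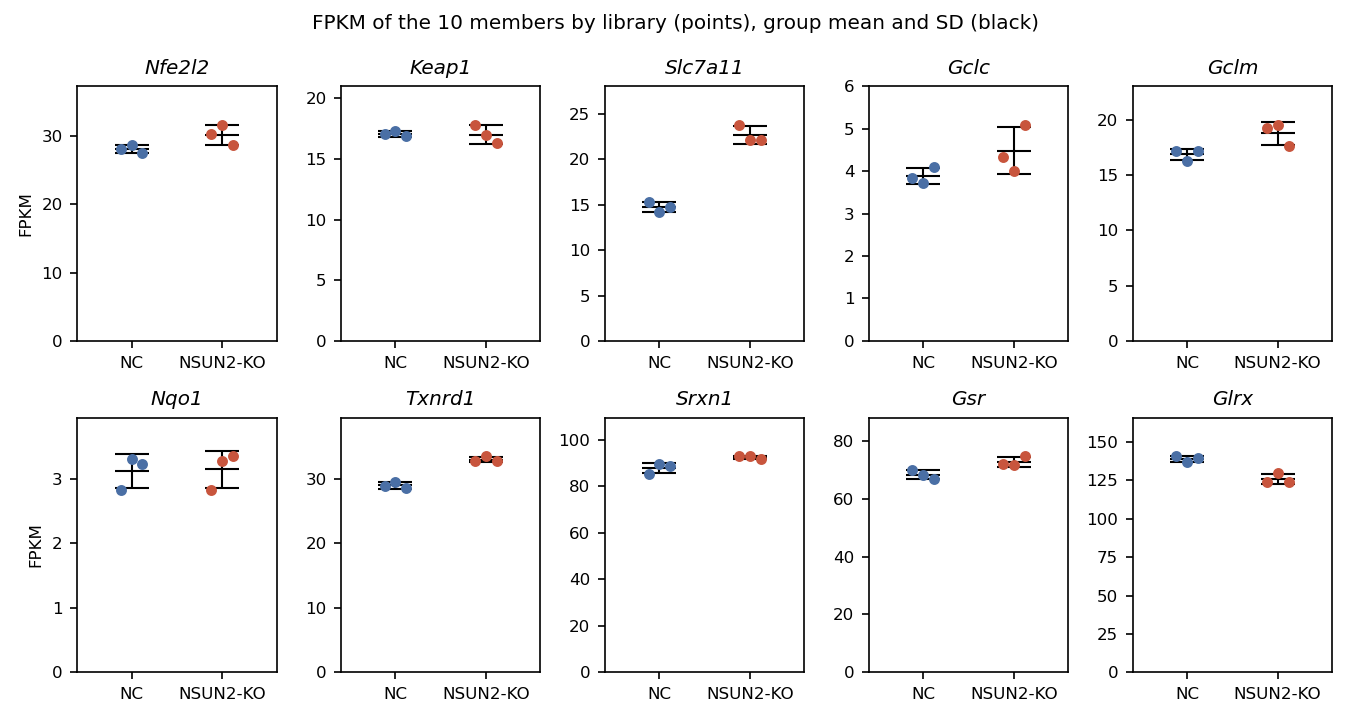
FPKM of each member in each library (points), with the mean and SD of the 3 NC (blue) and 3 NSUN2-KO (red) libraries in black; each vertical axis starts at 0. The 3 Slc7a11 values of NSUN2-KO lie between 22.1 and 23.8 FPKM, all above the NC values of 14.2 to 15.3 FPKM, while Glrx is lower in all 3 knockout libraries and Nqo1 overlaps.

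The transcript of the cystine transporter showed the clearest difference among the members, and cystine entry itself was not measured. Slc7a11 (ENSMUSG00000027737, chromosome 3, positions 49892526 to 50443614, minus strand) measured 15.3, 14.2 and 14.7 FPKM in NC and 23.8, 22.1 and 22.1 FPKM in NSUN2-KO. The groups were far apart relative to their spread, with 22.7 ± 0.98 FPKM in NSUN2-KO against 14.8 ± 0.56 (SD, n = 3). Slc7a11 rose by 0.59 on the log2 scale (SE 0.05, 95% interval 0.48 to 0.69, limma adjusted p = 0.000623). The 8017 to 13309 reads per library make it one of the better counted members, although part of this depth comes from its gene length of 13922 bases. The call held in all 18 alternatives, with an adjusted p of 1.31e-09 to 0.00766. Slc7a11 had the lowest GC content of the members, 40.7%, and over the tested genes GC content and fold change correlated at a Spearman rho of -0.374 (9433 genes, which are not independent replicates). With the GC and length trends of each library removed the log2 fold change of Slc7a11 was 0.52 (limma adjusted p = 0.000312). Its partner Slc3a2, the heavy chain that carries xCT to the cell surface and also serves other amino acid transporters, was not called (160.9 ± 4.23 FPKM in NC and 163.4 ± 2.08 in NSUN2-KO; adjusted p = 0.697). The ratio of Slc7a11 to Slc3a2 FPKM was 0.0980, 0.0862 and 0.0914 in NC and 0.147, 0.136 and 0.133 in NSUN2-KO, without overlap. Transcript ratios do not give the number of assembled transporters.

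The subunits of glutamate-cysteine ligase, which carries out the rate-limiting step of glutathione synthesis, had positive fold changes that did not pass the test. Gclm (ENSMUSG00000028124, chromosome 3, positions 122245557 to 122270732, plus strand), the modifier subunit, measured 17.2, 16.3 and 17.2 FPKM in NC and 19.3, 19.6 and 17.6 FPKM in NSUN2-KO. Its groups did not overlap, with NSUN2-KO replicate 3 closest to NC, and the log2 fold change was 0.15 (SE 0.05, limma adjusted p = 0.109). With limma voom on recovered reads Gclm was called (log2 fold change 0.16, adjusted p = 0.0258), and over all alternatives its adjusted p ran from 0.0258 to 0.269. The log2 fold change of Gclm was lowest, at 0.09, with the GC and length trends of each library removed (limma adjusted p = 0.178). Gclc (ENSMUSG00000032350, chromosome 9, positions 77754535 to 77794485, plus strand), the catalytic subunit, measured 3.84, 3.73 and 4.10 FPKM in NC and 4.33, 4.01 and 5.09 FPKM in NSUN2-KO. NSUN2-KO replicate 3 was high and NSUN2-KO replicate 2 lay within the NC range, and the log2 fold change of 0.16 had a 95% interval of -0.02 to 0.34 (limma adjusted p = 0.256). Per length, the catalytic transcript was at 0.224, 0.228 and 0.239 of the modifier transcript in NC and at 0.225, 0.205 and 0.289 in NSUN2-KO, which overlapped.

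Among the enzymes that recycle glutathione and thioredoxin, 1 was called higher and 1 lower. Txnrd1 (ENSMUSG00000020250, chromosome 10, positions 82833951 to 82897712, plus strand), a selenoprotein that reduces thioredoxin with NADPH, measured 28.9, 29.6 and 28.6 FPKM in NC and 32.7, 33.5 and 32.8 FPKM in NSUN2-KO. The spread within each group was small, with an SD of 0.53 FPKM in NC and 0.43 in NSUN2-KO (n = 3), and every knockout library lay above every NC library. Txnrd1 rose by 0.18 on the log2 scale (SE 0.03, limma adjusted p = 0.0165). Leaving out NC replicate 3 ended the call (adjusted p = 0.0776), as did leaving out NSUN2-KO replicate 1 (adjusted p = 0.0664). The opposite-strand RNA Gm38560 overlaps Txnrd1 and averaged 7.05 FPKM in NC and 7.34 in NSUN2-KO. Gsr (ENSMUSG00000031584, chromosome 8, positions 33652523 to 33698163, plus strand), which regenerates reduced glutathione, measured 69.8, 68.2 and 66.8 FPKM in NC and 71.9, 71.6 and 74.6 FPKM in NSUN2-KO. Its groups did not overlap, and the log2 fold change of 0.09 (SE 0.03, limma adjusted p = 0.135) was not called.

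Glrx was the member that fell, and it was also the most abundant member. Glrx (ENSMUSG00000021591, chromosome 13, positions 75839868 to 75850154, plus strand) measured 140.4, 136.6 and 139.5 FPKM in NC and 123.9, 129.8 and 123.7 FPKM in NSUN2-KO. All 3 knockout libraries were lower, 125.8 ± 3.45 against 138.8 ± 1.99 FPKM (SD, n = 3), with NSUN2-KO replicate 2 nearest to NC. Glrx fell by 0.14 on the log2 scale (SE 0.03, limma adjusted p = 0.0332). The adjusted p was 0.0757, 0.0711 and 0.129 without NC replicates 1, 2 and 3, 0.133 and 0.0794 without NSUN2-KO replicates 1 and 3, and 0.0931 when low genes were kept in, each above the threshold, as it also was without the mean-variance trend. It was 0.0339 without NSUN2-KO replicate 2. Glrx is the one member on the chromosome of Nsun2 and begins 6.20 Mb beyond its end. Of 64 tested genes within 10 Mb of Nsun2, 0 were called higher and 3 lower in limma, which is near the 4.30% called lower among all tested genes. The 3 were Glrx, Ctsl and Cdk20, the last 2 named after their values were seen. At an unadjusted p below 0.05 those 64 genes included 4 higher and 8 lower, and limma voom called 4 higher and 5 lower. Of all 9443 tested genes, 2409 had an unadjusted p below 0.05 in either direction. Over the same genes limma voom called 779 higher and 624 lower.

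**Figure D3:**
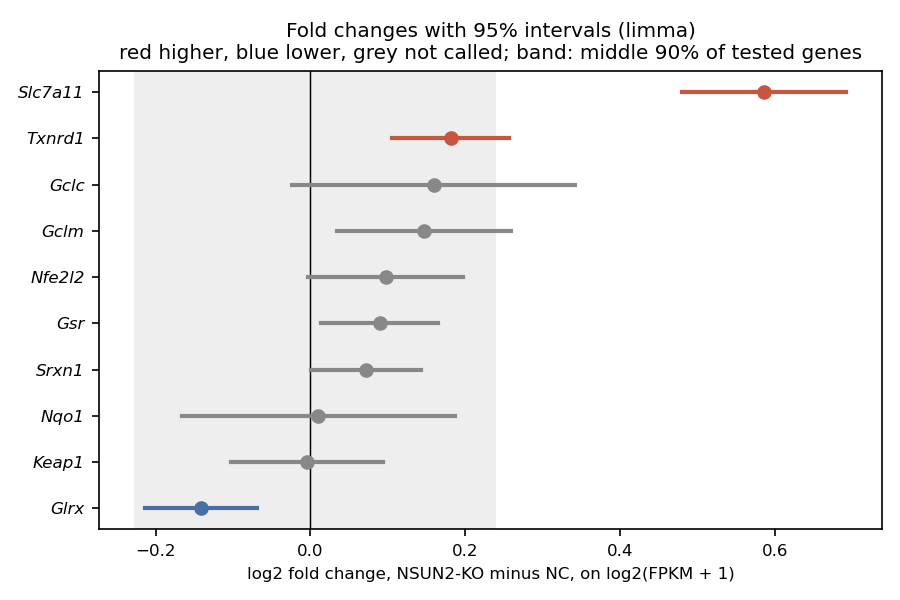
Log2 fold change of each member, NSUN2-KO minus NC on log2(FPKM + 1), with its 95% interval from limma; red was called higher, blue lower and grey not called, and the grey band holds the middle 90% of all tested genes. Slc7a11, at 0.59, is the member outside the band, and Txnrd1 and Glrx lie within it.

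Srxn1 and Nqo1 are classical NRF2 targets of peroxide repair and quinone detoxification, and neither was called. Srxn1 (ENSMUSG00000032802, chromosome 2, positions 152105516 to 152111376, plus strand), which reactivates overoxidized peroxiredoxins, measured 85.4, 89.7 and 88.8 FPKM in NC and 92.8, 92.8 and 91.7 FPKM in NSUN2-KO. The groups did not overlap, but the difference was small, with a log2 fold change of 0.07 (SE 0.03, limma adjusted p = 0.191). With the GC and length trends of each library removed Srxn1 was called higher (log2 fold change 0.12, adjusted p = 0.0192), and over all alternatives its adjusted p ran from 0.0192 to 0.378. Nqo1 (ENSMUSG00000003849, chromosome 8, positions 107388225 to 107403206, minus strand), a quinone reductase often used to read NRF2 activity, was the least abundant member with 169 to 235 reads per library. It measured 2.82, 3.30 and 3.22 FPKM in NC and 2.82, 3.27 and 3.34 FPKM in NSUN2-KO, which overlapped fully. Its log2 fold change was 0.01 with a 95% interval of -0.17 to 0.19 (limma adjusted p = 0.951). At this depth and number of libraries a difference within that interval was not excluded. The sign of the Nqo1 fold change was negative without NC replicate 1 or NSUN2-KO replicate 2 or 3 and with the trend over GC content and gene length removed.

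Across the system 8 of 10 fold changes were positive and 2 negative, and the median log2 fold change was 0.09, against -0.01 over all tested genes. Without regard to sign, the median log2 fold change over all tested genes was 0.08, so a shift of this size was common. In 5 of 10 members every NSUN2-KO library lay above every NC library, where 14.4% of all tested genes did so, and in 1 member, Glrx, every NSUN2-KO library lay below, where 16.7% of all tested genes did so. Of the 5, Gclm, Srxn1 and Gsr were not called. An unadjusted limma p below 0.05 was reached by 6 of 10 members and by 2409 of 9443 tested genes. By FPKM, which is per length, the order of mean levels in NC was Glrx, Srxn1, Gsr, Txnrd1, Nfe2l2, Keap1, Gclm, Slc7a11, Gclc and Nqo1. In NC the values of Txnrd1 and Nfe2l2 overlapped, as did those of Keap1 and Gclm. In NSUN2-KO the mean of Slc7a11 stood above those of Keap1 and Gclm, and all 3 of its values exceeded all of theirs.

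**Figure D4:**
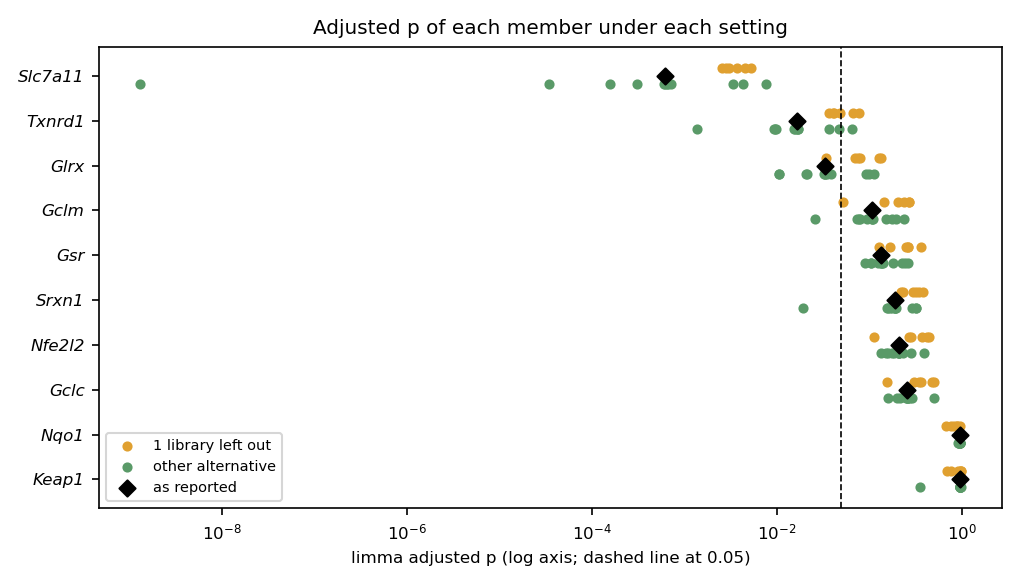
Limma adjusted p of each member on a log axis as reported (black diamonds), without 1 library (orange) and under the other alternatives (green), with a dashed line at 0.05. All points of Slc7a11 lie below 0.05, those of Txnrd1 and Glrx lie on both sides, and Gclm and Srxn1 each have 1 point below it.

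The wider pathway held calls in both directions. The 6 lists of regulators, glutathione and thioredoxin genes, other NRF2 targets and ATF4 targets held 144 further genes. Of these, 99 were tested, and 7 were called higher and 8 lower, where 4.19% and 4.30% of all tested genes were. The same shares stand beside the limma counts of each list below. The median log2 fold change of the 99 was -0.01, as it was over all tested genes. Leaving out NC replicate 3 or the first or second NSUN2-KO replicate left 3 higher, and leaving out NC replicate 1 or the last NSUN2-KO replicate left 4. Leaving out NC replicate 2 or 3 or the first NSUN2-KO replicate left 2 lower. The calls of Abcc4, Anpep and Nupr1 held in all 18 alternatives.

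Among 11 tested partners and degradation factors of NRF2, 2 were higher and 0 lower in limma (median log2 fold change 0.04). At an unadjusted p below 0.05 the list held 4 higher and 0 lower genes, and limma voom called 3 higher and 0 lower. Of all 9443 tested genes, 2409 had an unadjusted p below 0.05, and limma voom called 779 higher and 624 lower. Those totals also stand beside the counts of the lists that follow. Maff, a small MAF protein that can pair with NRF2, rose from 2.88 ± 0.27 to 4.01 ± 0.39 FPKM (SD, n = 3, limma adjusted p = 0.0301). The Maff call was lost without NC replicate 1 or 3 or NSUN2-KO replicate 2 or 3. With no filter on low genes it was also lost (limma adjusted p = 0.124). Gsk3b, a kinase that marks NRF2 for KEAP1-independent degradation, rose by 0.15 on the log2 scale from 12.6 ± 0.19 FPKM in NC (adjusted p = 0.0485), and its call was lost in each of the 6 fits without 1 library. Sqstm1, the autophagy receptor that sequesters KEAP1, measured 366.7 ± 11.5 and 384.5 ± 7.18 FPKM and was not called, and neither was the NRF2 relative Nfe2l1. With the GC and length trends of each library removed Sqstm1 was called higher (log2 fold change 0.12, limma adjusted p = 0.0156), and Nfe2l1 was not.

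Glutathione handling beyond the members held calls in both directions. Of 10 tested genes of supply, breakdown and export, 1 was higher and 2 were lower in limma (median log2 fold change 0.03). This balance was the opposite at an unadjusted p below 0.05, with 4 higher and 2 lower, and limma voom also called 4 higher and 2 lower. Abcc4, an efflux pump, rose from 4.42 ± 0.25 to 5.82 ± 0.10 FPKM (limma adjusted p = 0.0110). Anpep, a membrane aminopeptidase that can split the dipeptides left from glutathione breakdown, fell from 34.8 ± 0.88 to 26.8 ± 0.39 FPKM (adjusted p = 0.00113). Cndp2, a cytosolic dipeptidase, fell from 558.9 ± 15.6 to 508.2 ± 7.86 FPKM (adjusted p = 0.0362), a call that was lost in each of the 6 fits without 1 library. Of 19 tested enzymes that use glutathione, 0 were higher and 3 lower in limma (median log2 fold change -0.05); 2 were higher and 4 lower at an unadjusted p below 0.05, and limma voom called 0 higher and 3 lower. Gpx1, the cytosolic glutathione peroxidase, fell from 410.9 ± 20.1 to 328.7 ± 27.7 FPKM (adjusted p = 0.0216). Mgst1, a membrane glutathione transferase, fell from 53.0 ± 1.16 to 45.4 ± 2.55 FPKM and Gpx4, which reduces lipid peroxides, from 56.2 ± 1.38 to 48.3 ± 3.35 FPKM. Gpx1 lost its call without NC replicate 2, NC replicate 3 or NSUN2-KO replicate 1, Mgst1 without any 1 NC library or NSUN2-KO replicate 1, and Gpx4 in each of the 6 fits without 1 library. Without the mean-variance trend or the filter on low genes none of the 3 was called. Gpx4, with a GC content of 60.2%, was also not called with the GC and length trends of each library removed (log2 fold change -0.14, limma adjusted p = 0.188). Esd and Gstm1, the most abundant uncalled genes of this list, measured 241.2 and 41.5 FPKM in NC and 254.9 and 39.4 FPKM in NSUN2-KO.

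**Figure D5:**
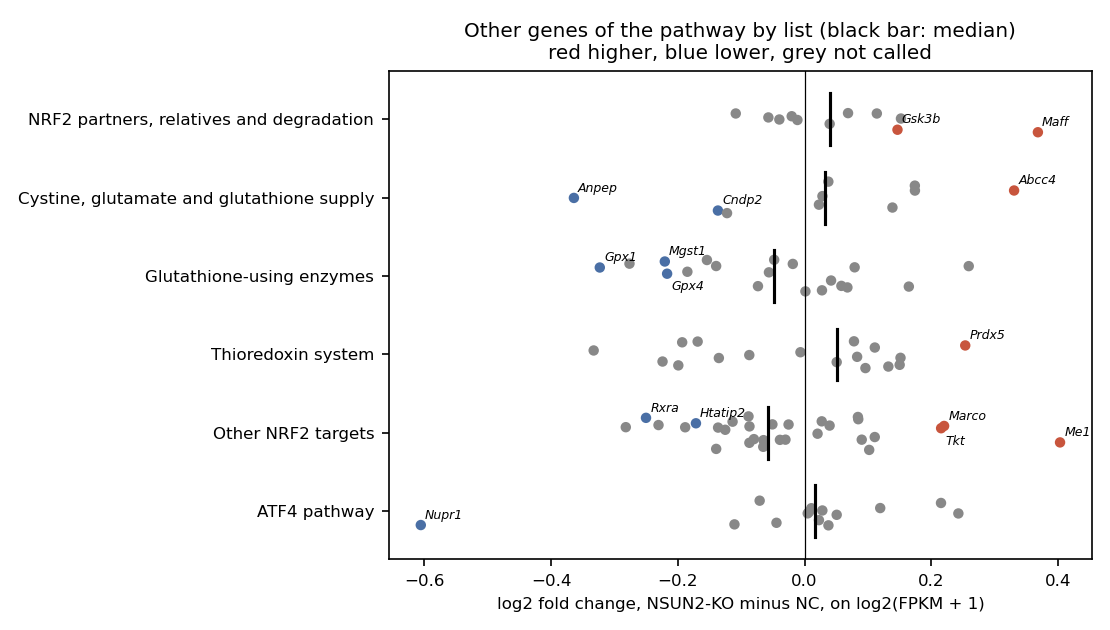
Log2 fold change, NSUN2-KO minus NC on log2(FPKM + 1), of each tested gene in 6 lists of the wider pathway; red was called higher, blue lower, grey not called, and the black bar is the median of the list. Called genes lie on both sides of 0, and the 3 called enzymes that use glutathione are all lower.

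In the thioredoxin list 1 of 17 tested genes was higher and 0 were lower in limma (median log2 fold change 0.05). At an unadjusted p below 0.05 there were 6 higher and 6 lower, and limma voom called 2 higher and 3 lower. Prdx5, a peroxiredoxin of mitochondria and peroxisomes, rose from 288.8 ± 15.1 to 344.2 ± 7.52 FPKM (adjusted p = 0.0124). Prdx5 was not called without NSUN2-KO replicate 1 or with no filter on low genes (limma adjusted p = 0.0740 with no filter). Prdx1, the most abundant gene of the list, measured 2986 ± 127.0 and 3164 ± 179.3 FPKM, and Txn1, the substrate of thioredoxin reductase, measured 264.6 ± 2.89 and 279.4 ± 8.93 FPKM; neither was called.

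Of 30 other tested NRF2 targets 3 were higher and 2 lower in limma (median log2 fold change -0.06). At an unadjusted p below 0.05 there were 6 higher and 9 lower, 11 of the 30 fold changes were positive and 19 negative, and limma voom called 5 higher and 4 lower. Marco, a scavenger receptor, rose from 558.3 ± 2.25 to 650.7 ± 20.5 FPKM (limma adjusted p = 0.00670). Me1, which makes NADPH from malate, rose from 3.32 ± 0.44 to 4.70 ± 0.24 FPKM (adjusted p = 0.0249), and Tkt, the transketolase of the pentose phosphate pathway, from 7.58 ± 0.29 to 8.96 ± 0.21 FPKM (adjusted p = 0.0288). Htatip2, a redox-regulated protein, fell from 40.4 ± 1.11 to 35.7 ± 0.50 FPKM (adjusted p = 0.0237) and the nuclear receptor Rxra from 9.97 ± 0.66 to 8.21 ± 0.16 FPKM (adjusted p = 0.0290). With no filter on low genes all 5 lost their call, with an adjusted p of 0.0547 for Marco and 0.0569 to 0.111 for the other 4. Leaving out 1 library ended the calls of Me1 and Htatip2 in 4 of 6 fits and those of Tkt and Rxra in 5 of 6. Hmox1, the heme oxygenase that NRF2 and BACH1 control, was abundant and not called, at 1705, 1742 and 1771 FPKM in NC and 1849, 1906 and 1777 FPKM in NSUN2-KO (log2 fold change 0.08, limma adjusted p = 0.182). All 3 knockout values of Hmox1 lay above the NC values, with NSUN2-KO replicate 3 only just so, and Hmox1 was called higher with limma voom or with the trend over GC content and gene length removed. Fth1, the ferritin heavy chain, overlapped at 33951 ± 1433 and 33385 ± 2134 FPKM.

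ATF4, the amino acid stress factor, is also known to drive Slc7a11, and its part in the Slc7a11 difference was not tested. Of 14 tested genes in the ATF4 list 0 were higher and 1 was lower in limma, with a median log2 fold change of 0.02. At an unadjusted p below 0.05 it was 1 higher and 1 lower, and with limma voom 0 higher and 1 lower. The lower one, Nupr1, a stress-induced chromatin protein, fell from 54.1 ± 1.58 to 35.3 ± 3.32 FPKM (adjusted p = 0.00180). Atf3 measured 409.5 ± 4.03 and 420.4 ± 6.14 FPKM and was not called.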

How the data were processed

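Expression was compared between 3 NSUN2-KO and 3 NC libraries of M1-polarized macrophages. The deposited FPKM values come with a gene length; per the submitters' processing notes the authors used DESeq2 1.20.0, featureCounts 1.5.0-p3, HISAT2 2.0.5, CASAVA 1.8 and fastp, and the build GRCm38 (mm10). What each tool did, the annotation release and the strand setting were not given in those sources. FPKM times gene length came out as a whole multiple of 1 library-specific step, to within 0.01 reads, for 100% of values above 0, which gave the reads. The steps were proportional to median-ratio size factors over 15295 genes (0.897 to 1.17; largest relative difference 3.5e-06). The deposited FPKM thus follow that scaling and not library totals. Floors and counting precision cover counting error only. Columns of unassigned samples numbered 0.

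Tests used limma 3.58.1 under R 4.3.3 for genes averaging 1 FPKM or more, on log2(FPKM + 1), with no covariate and eBayes fitted with a mean-variance trend. An adjusted p below 0.05 was a call. The test was checked on simulated reads. Alternatives were a pseudocount of 0.1 or 5, no filter, a minimum mean of 5 FPKM, no trend, median ratios, TPM, limma voom with TMM scaling on recovered reads, the replicate block, protein-coding genes only, each library's loess trend over GC content (GENCODE vM21 transcripts) and gene length removed (span 0.5), and leaving out each library. Scaling to library totals was added after seeing the data. Named genes were Nsun2, all members, and in each pathway list up to 6 called genes by p and the 2 most abundant uncalled ones. Hba-a1 and other markers at 0, Lyz2, Cd14 and sex-linked genes were chosen by their values. The members and lists were chosen with earlier results of these data known. Promoter sequences are from RefSeq; tables and figures used Python 3.11.15, pandas 2.3.3, scipy 1.17.1 and matplotlib 3.10.9.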

Additional observations from a re-analysis of the deposited data

How the results depend on the processing

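Over the 18 alternatives the number of members called higher was 1 to 3 and the number called lower 0 or 1. With the replicate block it was 1 higher and 0 lower; with no filter and with no mean-variance trend it was 0 lower. Without 1 library it ran from 1 to 2 higher and from 0 to 1 lower. The other pathway genes were 1 higher and 2 lower with no filter, 13 lower at a mean of at least 5 FPKM, 3 lower with no mean-variance trend, 14 higher and 13 lower with limma voom, 4 higher and 4 lower with the replicate block and 14 lower among protein-coding genes only. Without 1 library they ran from 3 to 5 higher and from 2 to 6 lower. Nsun2 was not called with no filter (log2 fold change -0.51, adjusted p = 0.113) and had a log2 fold change of -0.61 to -0.44 without 1 library, with an adjusted p of 0.0120 to 0.0845. Why these counts moved was not tested. The median-ratio rescaling repeats the deposited scaling, and the median log2 fold change of all tested genes moved by 0.0078 in TPM and 0.0014 with library totals.

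Replicate numbers are shared between groups but do not pair the libraries: the correlations of same-numbered deviations were -0.0095, -0.030 and 0.0034, and not every library correlated best with its own number. With the replicate block 351 genes were called instead of 802, and Txnrd1 (adjusted p = 0.0654) and Glrx (adjusted p = 0.112) were not among them. Calls among all tested genes numbered 265 with no filter, 526 without the trend, 1403 with limma voom, and 276 to 596 without 1 library.

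Called pathway genes lost their call without the following libraries: Maff without NC replicate 1 or 3 or NSUN2-KO replicate 2 or 3; Tkt without NC replicate 1 or 3 or any NSUN2-KO replicate; Rxra without NC replicate 2 or 3 or any NSUN2-KO replicate; Htatip2 and Me1 without NC replicate 2 or 3 or NSUN2-KO replicate 1 or 2. With the replicate block Me1, Tkt, Htatip2, Rxra, Gpx4, Gsk3b and Cndp2 were not called (adjusted p of 0.0661 to 0.138). With 3 libraries a group and 169 to 235 reads, Nqo1 had the widest relative counting error of the members.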
